A study of Mus musculus with 12 samples.

Results

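The genes described here are 10 genes of the NRF2 antioxidant response, taken by gene symbol from a count table of mouse epidermis. They are Nfe2l2, Keap1, Nqo1, Hmox1, Gclc, Gclm, Txnrd1, Srxn1, Slc7a11 and Gpx2, and all 10 were among the 14533 genes listed. Messenger RNA of epidermal scrapings, which reach into the superficial dermis, was sequenced from 6 wildtype (WT) mice and 6 mice lacking epidermal Pparg (Pparg-/-epi), 1 library per mouse. All 12 were C57BL/6 mice with floxed Pparg alleles and were sampled without treatment at 8 to 13 weeks of age, from skin without lesions. The Pparg-/-epi mice carried Cre recombinase under the keratin 14 promoter, which is active in keratinocytes of the interfollicular epidermis and the follicle. The paper describes the WT mice as sibling controls without Cre. Of the 6 breeding numbers in the labels, 1 held both genotypes. Cells of a scraping in which Cre had not been active kept their Pparg. The comparison asked which transcripts differed in unchallenged skin when keratinocytes had lost this nuclear receptor. There were 7 female and 5 male mice.

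NRF2, the protein of Nfe2l2, is a transcription factor that is made continuously and destroyed quickly. KEAP1 holds it for ubiquitination by a cullin 3 ligase, and oxidants and electrophiles that modify KEAP1 let NRF2 accumulate, enter the nucleus and bind antioxidant response elements with small MAF proteins. NRF2 is therefore controlled largely after transcription, and its activity is usually read from its targets. In skin the pathway is known for protecting keratinocytes from oxidants and ultraviolet light, and the genes below also answer to other factors: Hmox1 to heme through BACH1, and Slc7a11 to ATF4.

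The response element is the sequence that NRF2 targets are known to share, so the promoter windows of the genes were searched for it. RefSeq windows from 250 bases before to 50 bases after the start of transcription (GRCm38.p6) were matched for 8 of the 10 genes, without Hmox1 and Gclc. Txnrd1 had several starts, so that there were 10 windows. The core of the element, TGACNNNGC on either strand, lay in windows of 4 genes (Nfe2l2, Gclm, Txnrd1 and Srxn1), against 12.4% of the 32851 windows of the table. The AP-1 site, TGANTCA, lay in the window of Srxn1 alone, against 7.81% of all windows. The motifs can share letters, and here none of the matches to these exact forms overlapped. Other spellings of the core, with G in place of its C among them, were not searched. The windows of Nqo1, Keap1, Slc7a11 and Gpx2 held neither run of letters, and sequence outside the windows was not searched. The matched stretches are printed 5′ to 3′ on the strand of the gene, with the match in capitals. They are chr2:75704870-75704913 (minus strand) for Nfe2l2, chr3:122245397-122245456 (plus strand) for Gclm and chr10:82859088-82859147 (plus strand) for Txnrd1.
Nfe2l2: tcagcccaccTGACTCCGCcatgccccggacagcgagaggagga
Gclm: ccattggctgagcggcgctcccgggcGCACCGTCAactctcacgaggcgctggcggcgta
Txnrd1: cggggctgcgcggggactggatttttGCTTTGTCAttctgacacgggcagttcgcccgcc

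The first base of the match lay at -240 in Nfe2l2, at -134 in Gclm and at -92 in Txnrd1, counted from the start of transcription. Srxn1 is shown over the whole 250 bases before its start, chr2:152105274-152105523 (plus strand), because it had the lowest adjusted p of the 10. The capitals mark AP-1 sites at -102 and -45, and the core match of Srxn1, on the opposite strand, began at 29 bases after the start.
Srxn1: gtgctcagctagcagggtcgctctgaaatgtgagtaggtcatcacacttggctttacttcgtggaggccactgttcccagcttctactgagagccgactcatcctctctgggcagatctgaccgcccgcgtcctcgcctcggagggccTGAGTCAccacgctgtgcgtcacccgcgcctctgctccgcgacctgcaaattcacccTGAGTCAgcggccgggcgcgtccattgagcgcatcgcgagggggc

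The libraries held 10120840 to 18851255 counts. Counts of the targeted gene, Pparg, were low in both groups, from 5 to 269 in WT and from 16 to 107 in Pparg-/-epi mice, and no difference was detected (log2 fold change -0.10, adjusted p = 0.949). Recombination leaves a shortened Pparg transcript and cells without Cre activity keep the gene, so a count over the whole gene does not check the deletion. All 7 keratinocyte markers were listed, with summed levels of 14840 to 38830 CPM (counts scaled to a common library size) in WT and 26370 to 47010 CPM in Pparg-/-epi mice. Markers of other cells were present too. Of 9 listed sebocyte markers 6 were lower (summed 997 to 3249 CPM in WT mice and 477 to 644 CPM in Pparg-/-epi mice). Of 8 neutrophil markers 4 were listed, without Ly6g, Mmp8, Camp and Ngp. Of these 4, S100a8, S100a9 and Cxcr2 were higher (summed over the 4, 2.14 to 13.3 and 37.8 to 54.0 CPM). The paper describes S100a8 and S100a9 as alarmins and reports no significant infiltrate in skin without lesions. The part of these cell types in the results below was not tested. WT replicate 2 stood apart, with the highest sebocyte, macrophage, endothelial and melanocyte marker levels of the WT group and the lowest keratinocyte marker level of all mice. In whole scrapings, fewer cells of a type and less RNA per cell cannot be told apart.

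Of the 10 NRF2 genes, 3 were altered, all of them higher in Pparg-/-epi mice: Slc7a11 (3.16-fold), Nqo1 (2.39-fold) and Srxn1 (1.98-fold). Altered means a log2 fold change of at least 0.6 in size with an adjusted p under 0.05 (edgeR quasi-likelihood test, Benjamini-Hochberg over all genes). Of all genes tested, 10.3% were altered, 5.19% higher and 5.08% lower. Nfe2l2 itself rose by less than the fold threshold, and Gpx2 had the highest fold change of the 10 without passing the test. Hmox1, Gclc, Gclm, Txnrd1 and Keap1 were not altered. At any size of change 4 genes had an adjusted p under 0.05, as had 15.4% of all genes. The levels of the 2 groups did not overlap for 3 genes (Nfe2l2, Srxn1 and Slc7a11), as for 7.9% of all genes. The median log2 fold change was 0.43 over the 10 genes and -0.01 over all genes.

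**Figure D1:**
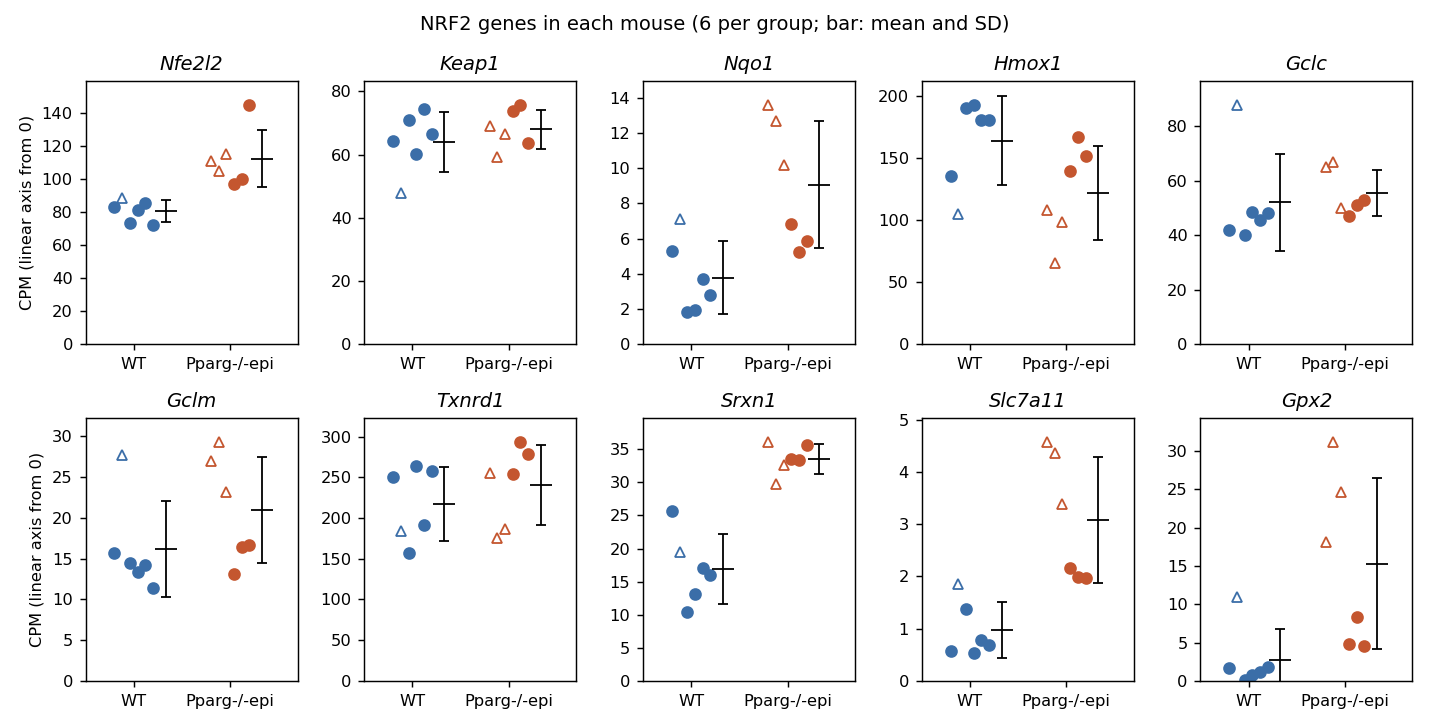
CPM of each NRF2 gene in the 6 WT and 6 Pparg-/-epi mice on linear axes from 0, 1 point per mouse, with the mean and SD as black bars (the SD bar of Gpx2 in WT is cut at 0). Open triangles mark WT replicate 2 and Pparg-/-epi replicates 7, 8 and 9; in Nfe2l2, Srxn1 and Slc7a11 every Pparg-/-epi point lies above every WT point.

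The transcription factor and its inhibitor are taken first. Nfe2l2 (chr2:75675519-75704641, mm10) ranged from 72.2 CPM through a median of 82.2 to 88.5 CPM in WT, and from 97.1 through 108.0 to 144.7 CPM in Pparg-/-epi mice. All Pparg-/-epi mice lay above all WT mice, and Pparg-/-epi replicate 12 was the highest. The difference was 0.48 in log2 units (standard error 0.10, adjusted p = 0.0078), a 1.39-fold difference. Nfe2l2 was also the least variable of the 10 genes in WT, with a coefficient of variation of 8.08%. It kept an adjusted p under 0.05 in all 12 fits that each left out 1 mouse (0.0052 to 0.0211). In females alone, in males alone, without breeding numbers 192 and 195 and without 226 its log2 fold change was 0.40 to 0.57, but the adjusted p was 0.0594 to 0.295.

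Keap1 (chr9:21229730-21239332), the adaptor that brings NRF2 to its ligase, ranged from 47.8 through 65.3 to 74.5 CPM in WT mice and from 59.2 through 67.8 to 75.7 CPM in Pparg-/-epi mice. The ranges largely coincided, with WT replicate 2 the lowest mouse. Its log2 fold change was 0.09 (standard error 0.11, adjusted p = 0.639), and 0.0018 without that mouse. The exons of Keap1 overlap those of Gm16754 on the opposite strand. The level of Nfe2l2 divided by that of Keap1 had a median of 1.22 in WT (1.04 to 1.85) and 1.67 in Pparg-/-epi mice (1.32 to 2.27). The groups overlapped, since WT replicates 2 and 4 (1.85 and 1.35) lay above Pparg-/-epi replicates 10 and 11 (1.32 each). The log2 ratio differed by 0.37 (exact two-sided permutation test, p = 0.0671, adjusted p = 0.134 over the 2 ratios tested). Without WT replicate 2 it differed by 0.48 (unadjusted p = 0.0173), and without any other 1 mouse the unadjusted p was 0.052 to 0.134.

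Srxn1 (chr2:152105524-152111376), sulfiredoxin, reduces peroxiredoxins that have been overoxidized by peroxide. It ranged from 10.4 through 16.5 to 25.6 CPM in WT mice and from 29.8 through 33.5 to 36.2 CPM in Pparg-/-epi mice. Every Pparg-/-epi mouse was above the highest WT mouse, replicate 1, and the Pparg-/-epi mice differed little, with a coefficient of variation of 6.84% against 31.2% in WT. The log2 fold change was 0.98 (standard error 0.18, adjusted p = 0.0033). Srxn1 stayed altered without any 1 mouse, at log2 fold changes of 0.88 to 1.12. The call held among the females (1.02, adjusted p = 0.0176) and without the mice of breeding numbers 192 and 195, but not among the males (0.95, adjusted p = 0.322) or without breeding number 226 (0.58, adjusted p = 0.0791).

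Slc7a11 (chr3:50364936-50443613) encodes the transport subunit of the cystine-glutamate exchanger, which brings in cystine for glutathione synthesis. Its level was low, from 0.538 through 0.741 to 1.86 CPM in WT mice and from 1.98 through 2.78 to 4.58 CPM in Pparg-/-epi mice. These levels rested on 8 to 35 counts per WT mouse and 22 to 88 counts per Pparg-/-epi mouse. The groups did not overlap, but the highest WT mouse (replicate 2) and the lowest Pparg-/-epi mouse (replicate 12) were close. The log2 difference was 1.66 (standard error 0.38, adjusted p = 0.0108), and Slc7a11 stayed altered in the 12 fits that left out 1 mouse (1.496 to 1.965). It was not altered in females alone (1.78, adjusted p = 0.0922), in males alone (1.18, 0.401), without breeding numbers 192 and 195 (1.04, 0.219) or without 226 (1.34, 0.227). Slc3a2, the partner chain of the exchanger, was at 91.6 ± 9.99 CPM in WT mice and 92.6 ± 9.10 CPM in Pparg-/-epi mice (SD, n = 6), with an adjusted p of 0.937.

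Nqo1 (chr8:107388225-107403205), a quinone reductase and the target most often used to read NRF2 activity, ranged from 1.81 through 3.24 to 7.11 CPM in WT. In Pparg-/-epi mice it ranged from 5.24 through 8.50 to 13.6 CPM. The 3 Pparg-/-epi mice of breeding numbers 192 and 195 lay above all WT mice (10.2 to 13.6 CPM), whereas those of 222 and 225 (5.24 to 6.82 CPM) lay within the WT range. The log2 fold change was 1.25 (standard error 0.37, adjusted p = 0.0381). Nqo1 stayed altered in 5 of the 12 fits that left out 1 mouse, where its adjusted p ran from 0.0092 to 0.100 and its log2 fold change from 1.08 to 1.52. It lost the call without each of WT replicates 3 to 6 and Pparg-/-epi replicates 7 to 9.

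Gpx2 (chr12:76792335-76795554), a glutathione peroxidase of epithelia, varied most of the 10 genes. It ranged from 0.107 through 1.38 to 11.0 CPM in WT, or 1 to 207 counts, and from 4.55 through 13.2 to 31.2 CPM in Pparg-/-epi mice, or 53 to 515 counts. All Pparg-/-epi mice lay above the other 5 WT mice (0.107 to 1.83 CPM), but WT replicate 2 lay above 3 of them. At a log2 fold change of 2.45, with a standard error of 0.81, it missed the threshold of the quasi-likelihood test (adjusted p = 0.0605). It passed with the likelihood ratio test (0.0205), with DESeq2 (0.0076) and with the newer quasi-likelihood method of edgeR (0.0413), under which 4 of the 10 genes and 10.8% of all genes were altered. Its log2 fold change reached 3.75 (adjusted p = 0.0021) once WT replicate 2 was left out. That was the 1 fit of the 12 leaving out 1 mouse in which Gpx2 was altered, and its adjusted p in the others reached 0.129. Of the 75-base stretches of its transcripts, 3.17% are shared with the pseudogene Gpx2-ps1.

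Gclc and Gclm encode the catalytic and the modifier subunit of glutamate-cysteine ligase, the rate-limiting enzyme of glutathione synthesis. Gclc (chr9:77754535-77794489) ranged from 40.0 through 46.9 to 87.7 CPM in WT mice and from 47.2 through 51.9 to 66.7 CPM in Pparg-/-epi mice. WT replicate 2 was above all other mice and the other 5 WT mice were at most 48.5 CPM. Its log2 fold change was 0.09 (standard error 0.18, adjusted p = 0.788), and 0.29 without that mouse (adjusted p = 0.0786).

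Gclm (chr3:122245557-122267215) ranged from 11.4 through 14.4 to 27.8 CPM in WT mice and from 13.1 through 19.9 to 29.4 CPM in Pparg-/-epi mice. WT replicate 2 and the Pparg-/-epi mice of breeding numbers 192 and 195 (23.1 to 29.4 CPM) were high, and the other mice of both genotypes were at 11.4 to 16.7 CPM. Its log2 fold change was 0.38 (standard error 0.25, adjusted p = 0.342), and 0.59 without WT replicate 2 (adjusted p = 0.0555). Exons of Gclm overlap those of Gm6061 on the same strand and Gm17494 on the opposite strand. The level of Gclm over that of Gclc had a median of 0.314 in WT (0.236 to 0.376) and 0.369 in Pparg-/-epi mice (0.279 to 0.462). The log2 ratio differed by 0.24 (exact two-sided permutation test, p = 0.154, the same after adjustment over the 2 ratios).

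Txnrd1 (chr10:82833951-82897724), the cytosolic thioredoxin reductase, ranged from 157 through 221 to 264 CPM in WT mice and from 175 through 255 to 294 CPM in Pparg-/-epi mice. The groups overlapped over most of their range (log2 fold change 0.15, standard error 0.17, adjusted p = 0.615).

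Hmox1 (chr8:75093618-75100593), heme oxygenase 1, which opens the heme ring and releases iron, was the one gene of the 10 whose mean was lower in Pparg-/-epi mice. It ranged from 105 through 181 to 193 CPM in WT mice and from 65.9 through 124 to 167 CPM in Pparg-/-epi mice. The lowest WT mouse was replicate 2, and the 3 Pparg-/-epi mice of breeding numbers 192 and 195 (65.9 to 108 CPM) lay below those of 222 and 225 (140 to 167 CPM). The log2 fold change was -0.43 (standard error 0.22, adjusted p = 0.211), and without WT replicate 2 it was -0.55 (adjusted p = 0.0704).

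**Figure D2:**
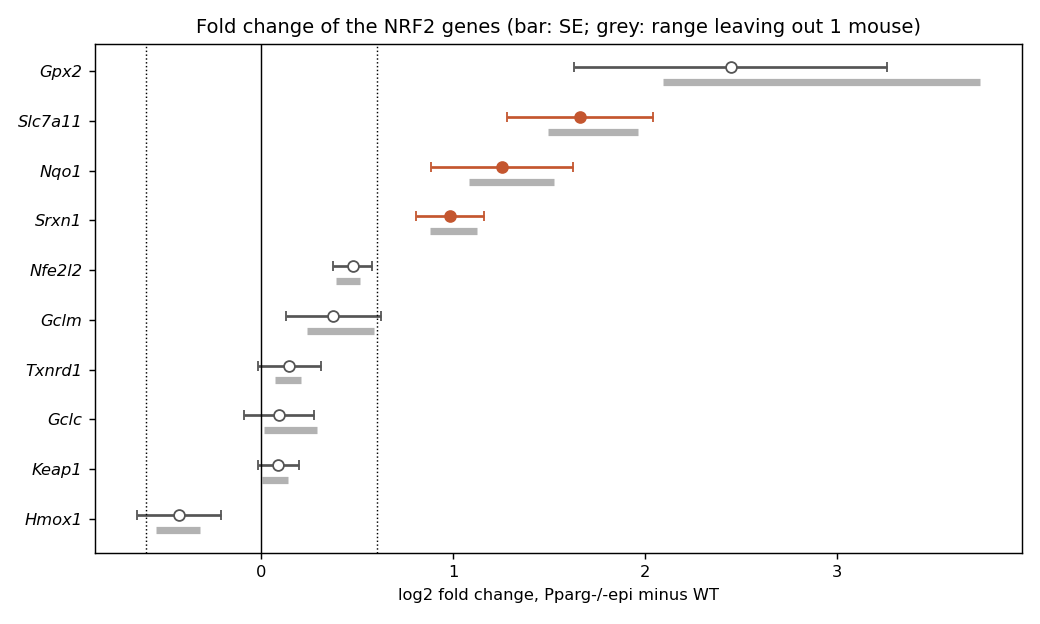
Log2 fold change of each NRF2 gene, Pparg-/-epi minus WT, with its standard error (6 mice per group); filled points are altered, dotted lines mark a log2 fold change of 0.6 in either direction, and grey bars span the 12 fits that each left out 1 mouse. The grey bar of Gpx2 reaches 3.75 and that of Srxn1 stays between 0.88 and 1.12.

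Set per exon length, as RPKM (CPM divided by the exon length in kilobases), Hmox1 had the highest level in WT (104 ± 22.7 RPKM, SD, n = 6), followed by Txnrd1 (54.1 ± 11.3 RPKM) and Nfe2l2 (32.6 ± 2.64 RPKM). These 3 did not overlap with each other or with the genes below them. Gclc (15.2 ± 5.21 RPKM) and Keap1 (14.3 ± 2.11 RPKM) were next, followed by Gclm (7.80 ± 2.83 RPKM), Srxn1 (6.02 ± 1.88 RPKM), Gpx2 (2.57 ± 3.83 RPKM) and Nqo1 (2.43 ± 1.34 RPKM). From Gclc to Nqo1 each gene overlapped with the next in this order. Slc7a11 (0.106 ± 0.058 RPKM) lay below all of them except the lowest Gpx2 mouse. The genes that were altered were thus among the 4 lowest in WT. In Pparg-/-epi mice Hmox1 (77.4 ± 23.9 RPKM) overlapped with Txnrd1 (59.9 ± 12.2 RPKM), and Gpx2 (14.3 ± 10.5 RPKM) stood sixth.

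The 10 genes did not all vary together within the groups. Across the 12 mice, with each group's mean taken out, log2 CPM of Nqo1 and Gpx2 had a Pearson r of 0.85, Gclm and Slc7a11 of 0.82, Gclc and Gpx2 of 0.80, and Gclc and Gclm of 0.79. Hmox1 ran the other way, with r of -0.85 against Gclm and -0.85 against Nqo1, and Keap1 had r of -0.83 against Gclc. These are descriptions over 12 mice, in which both genes of a pair share the depth and RNA quality of a library, and 1 mouse, WT replicate 2, was extreme in most of them. It was the highest WT mouse for Nfe2l2, Nqo1, Gclc, Gclm, Slc7a11 and Gpx2 and the lowest for Keap1 and Hmox1.

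Several library measures moved with this pattern. The RNA integrity number (RIN) was 8.6 in WT replicate 2 and 5.9 to 7.4 in the other WT mice. It was 8.6, 8.5 and 7.7 in Pparg-/-epi replicates 7, 8 and 9 and 5.7 to 7.7 in the others. With RIN beside genotype in the model, the RIN term had an adjusted p under 0.05 for 5 of the 10 genes, against 13.1% of all genes. Per unit of RIN, Gpx2 was higher by 0.92 on the log2 scale (adjusted p = 0.0440), Nqo1 by 0.50 (0.0390), Gclm by 0.32 (0.0395) and Gclc by 0.22 (0.0470), and Hmox1 changed by -0.32 (0.0386). For Slc7a11 the term was 0.37 (adjusted p = 0.105). For Srxn1 (0.10, adjusted p = 0.444) and Nfe2l2 (0.03, adjusted p = 0.672) it was small. Without WT replicate 2 none of the 10 genes and no gene of the table kept that adjusted p, and 3 of the 10 and 2508 of all genes had an unadjusted p under 0.05. With RIN in the model 4 genes were altered by genotype (Srxn1, Slc7a11, Nqo1 and Gpx2), and 9.71% of all genes. Their log2 fold changes for genotype were then 0.93, 1.40, 0.94 and 2.31 in this order, against 0.98, 1.66, 1.25 and 2.45 without RIN. The part of RNA integrity itself in these levels was not tested.

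Hair follicle markers, 10 of 10 listed and none at 0 in all mice, summed to 2074 CPM in WT replicate 2 and to 26.1 to 502.5 CPM in the other WT mice. They summed to 1558 and 4317 CPM in Pparg-/-epi replicates 7 and 8 and to 155 to 463 CPM in the other 4. Macrophage markers, 12 of 12 listed, summed to 802 CPM in WT replicate 2, to 94.7 to 399 CPM in the other WT mice and to 250 to 463 CPM in Pparg-/-epi mice. Melanocyte markers, 6 of 7 listed, summed to 78.3 CPM in WT replicate 2 and to 14.2 to 53.5 CPM in the other WT mice. They summed to 93.2 to 230 CPM in Pparg-/-epi replicates 7 to 9 and to 37.5 to 51.3 CPM in replicates 10 to 12. Endothelial markers, 6 of 6 listed, summed to 133 CPM in WT replicate 2 and 7.99 to 79.3 CPM in the other WT mice, to 167 to 210 CPM in Pparg-/-epi replicates 7 to 9 and to 33.4 to 77.9 CPM in replicates 10 to 12. The part of macrophage, melanocyte and endothelial cells in the NRF2 genes was not tested. None of the hair follicle and macrophage markers was altered in the quasi-likelihood test (0 at an unadjusted p under 0.05), the likelihood ratio test or DESeq2, and Kit was the 1 altered melanocyte marker and Emcn the 1 altered endothelial marker. Without WT replicate 2 and Pparg-/-epi replicates 7 and 8, the mice highest in hair follicle markers, Srxn1 (log2 fold change 1.02, adjusted p = 0.0118), Slc7a11 (1.58, 0.0183) and Gpx2 (3.21, 0.0109) were altered, as were 9.85% of all genes. Nqo1 was then at 1.15 (adjusted p = 0.0531). Without WT replicate 2 alone 4 of the 10 genes were altered (Srxn1, Slc7a11, Nqo1 and Gpx2), and 15.5% of all genes.

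**Figure D3:**
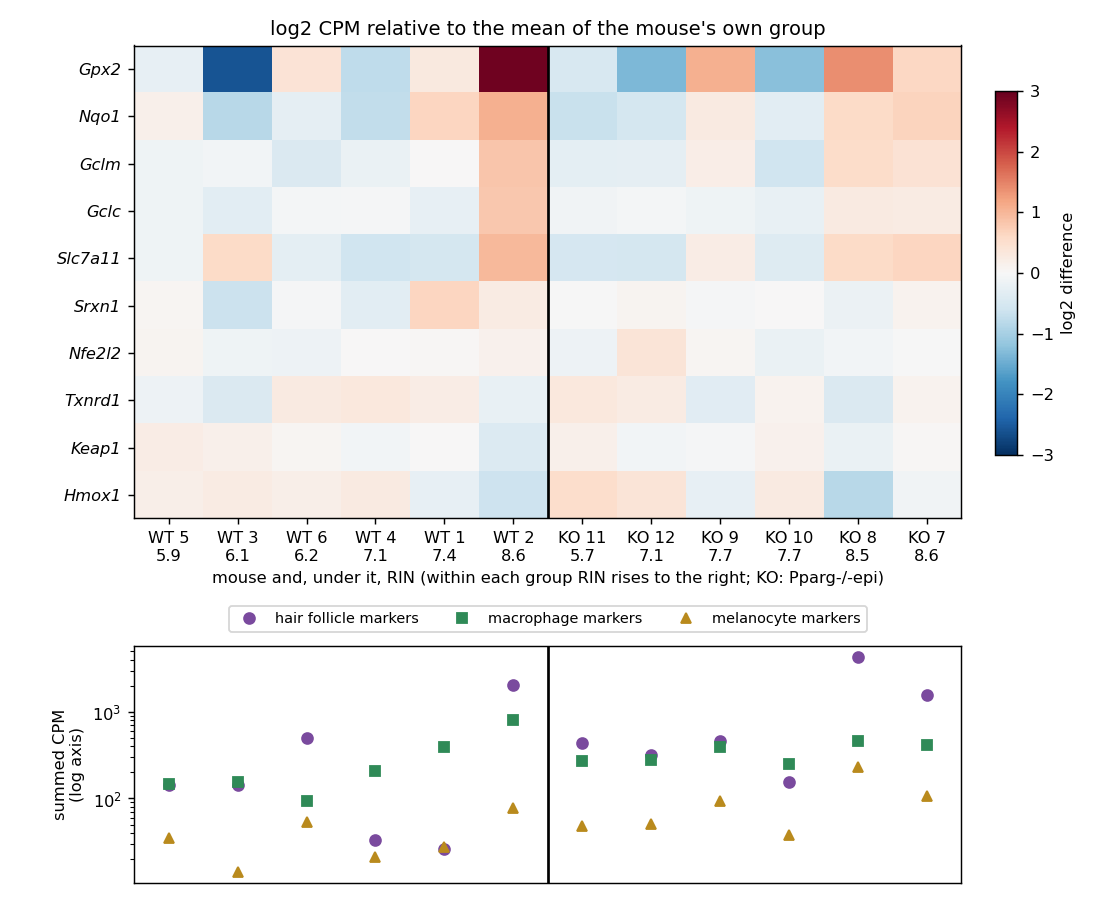
Upper panel, log2 CPM of each NRF2 gene relative to the mean of the mouse's own group (red above, blue below), with the mice of each group ordered by RIN. Lower panel, summed CPM of hair follicle, macrophage and melanocyte markers in the same mice on a log axis; WT replicate 2 (RIN 8.6) is at the right end of the WT mice, with 2074 CPM of hair follicle markers.

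The breeding number separated the Pparg-/-epi mice in the same way and could be compared with genotype only in part. Numbers 192, 195 and 225 held Pparg-/-epi mice only, 217 and 226 held WT mice only, and 222 held 1 mouse of each genotype. Outside 222, breeding number and genotype cannot be told apart. Replicates 7 to 9 (192 and 195) did not overlap with replicates 10 to 12 (222 and 225) for Gpx2 (18.2 to 31.2 against 4.55 to 8.32 CPM), Slc7a11 (3.39 to 4.58 against 1.98 to 2.16 CPM), Nqo1, Gclm and Hmox1. Srxn1 was at 32.9 ± 3.20 CPM and 34.2 ± 1.25 CPM in these sets (SD, n = 3 each), and Nfe2l2 at 110 ± 5.03 and 114 ± 26.7 CPM. Within breeding number 222, the WT and the Pparg-/-epi mouse had 19.5 and 33.6 CPM of Srxn1, 88.5 and 97.1 CPM of Nfe2l2 and 1.86 and 2.16 CPM of Slc7a11. They had 7.11 and 6.82 CPM of Nqo1 and 11.0 and 4.82 CPM of Gpx2. Without the mice of 192 and 195, 1 of the 10 genes was altered (Srxn1, log2 fold change 0.99, adjusted p = 0.0429), and 3.85% of all genes. The log2 fold change of Slc7a11 was then 1.04 (adjusted p = 0.219), that of Gpx2 1.05 (0.577) and that of Nqo1 0.63 (0.449). Without breeding number 226, which held 4 of the 6 WT mice, none of the 10 genes was altered, and 2.68% of all genes.

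With the 6 breeding numbers as a block beside genotype, the genotype difference rested on the 2 mice of 222 and the spread on the mice that shared a number. None of the 10 genes was altered in that quasi-likelihood fit, against 1.64% of all genes. An unadjusted p under 0.05 was reached there by 4 of the 10 and by 3496 of the 14533 genes. Of the 4, Gclm (log2 fold change -1.08) and Gclc (-0.895) were lower in Pparg-/-epi mice, and Keap1 (0.63) and Srxn1 were higher. The log2 fold change was 0.79 for Srxn1 (adjusted p = 0.173), 0.13 for Nfe2l2 (0.784), 0.22 for Slc7a11 (0.867), -0.06 for Nqo1 (0.954) and -1.19 for Gpx2 (0.448). Sex and RIN ran with these comparisons. The WT mouse of 222 was female, with a RIN of 8.6, and the Pparg-/-epi mouse was male, with a RIN of 7.7. Pparg-/-epi replicates 7 to 9 were all female, and of replicates 10 to 12 only replicate 11 was.

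In the 7 female mice alone Srxn1 was the 1 altered gene of the 10, and 4.48% of all genes were altered. In the 5 male mice none of the 10 was, and 0.124% of all genes. For none of the 10 genes did the interaction of genotype and sex pass the quasi-likelihood test. None of the 10 had an unadjusted p under 0.05 there or with the likelihood ratio test, and 741 of all genes did in the quasi-likelihood test. The adjusted p of the interaction ran from 0.895 (Txnrd1) to 0.996 (Gpx2).

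Among the 8 lists of other genes around NRF2, 107 genes were listed, and 20 of them were altered, 15 higher and 5 lower, with a median log2 fold change of 0.02. The 15 include all 3 genes of the short epidermal list described below. All the lists were picked with earlier results of these data known, so these counts are not independent evidence. The share of all genes was 10.3% altered, 5.19% higher and 5.08% lower, and the single altered genes of the shorter lists below are to be read against it. Of the 14 regulators and partners of NRF2, 1 was altered: Nfe2l3, a transcription factor of the same family, was higher (58.1 ± 13.6 CPM in WT mice and 97.9 ± 16.1 CPM in Pparg-/-epi mice, SD, n = 6, log2 fold change 0.75, adjusted p = 0.0071). Below the fold threshold, Cul3, the scaffold of the KEAP1 ligase, rose by 0.49 in log2 units (adjusted p = 0.0056). The small MAF gene Maff rose by 0.56 (adjusted p = 0.0284), and Btrc, a receptor of another ligase that recognizes NRF2, fell by 0.54 (adjusted p = 0.0079). Bach1, the repressor of Hmox1, was at 0.37 in log2 fold change (adjusted p = 0.0797). These 4 were chosen after their values were seen.

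Of 27 listed genes of glutathione synthesis and use, 5 were higher and 2 lower. Mgst2, a microsomal glutathione transferase, rose from 7.18 ± 3.28 to 21.6 ± 5.72 CPM (log2 fold change 1.60, adjusted p = 0.0018) without overlap between the groups, and Gstm2 from 20.5 ± 6.12 to 36.5 ± 4.35 CPM (0.83, adjusted p = 0.0087), also without overlap. Ggct, a gamma-glutamyl cyclotransferase, rose by 0.85 in log2 units (adjusted p = 0.0261). Gsta3 changed by -1.32 in log2 units (adjusted p = 0.0303). The other altered members were Gsta4 and Gstm1, which rose (1.33 and 1.01), and Gsta2, which fell by 1.25 on the log2 scale. Of the 75-base stretches of Gsta2 36.6% are shared with other genes, Gsta1 among them, and of those of Gstm1 11.7%. Of the alpha class Gsta4 was thus higher and Gsta2 and Gsta3 lower, and Gsta1 was at a log2 fold change of -0.03 (adjusted p = 0.975). Several of these calls were lost when 1 mouse was left out. Gsta2 was not altered in 7 of the 12 fits that left out 1 mouse (WT replicates 3 to 6 and Pparg-/-epi replicates 7 to 9, adjusted p up to 0.0792), nor was Gsta3 in 4 (Pparg-/-epi replicates 7 and 9 to 11, up to 0.0671). Gsta4 lost the call in 8 (WT replicates 1, 4 and 6, Pparg-/-epi replicates 7 and 9 to 12, up to 0.0706), as did Gstm1 (WT replicates 3 to 6, Pparg-/-epi replicates 7 to 9 and 11, up to 0.0853). Ggct lost it in 4 (WT replicate 4 and Pparg-/-epi replicates 10 to 12, up to 0.0579), and Mgst2 and Gstm2 in none.

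Of 15 thioredoxin and peroxiredoxin genes, 2 were altered, both higher: Glrx, a glutaredoxin, from 32.9 ± 16.5 to 88.2 ± 14.05 CPM (log2 fold change 1.42, adjusted p = 0.0042) and Txnrd3, the third thioredoxin reductase, from 21.8 ± 8.32 to 43.2 ± 10.1 CPM (0.98, adjusted p = 0.0131). Txn1, thioredoxin itself, was just under the fold threshold (0.59, adjusted p = 0.0020). Of 7 genes of NADPH generation, Me1, malic enzyme 1, was lower (363 ± 111 and 194 ± 36.1 CPM, log2 fold change -0.90, adjusted p = 0.0102). G6pdx, glucose-6-phosphate dehydrogenase, was below the fold threshold (0.44, adjusted p = 0.0052), and 16.4% of the stretches of Me1 are shared with pseudogenes. Of 9 listed genes of heme and iron handling, Blvrb, biliverdin reductase B, was lower (43.3 ± 10.8 and 26.3 ± 5.23 CPM, log2 fold change -0.72, adjusted p = 0.0147). Without WT replicate 3 it was at -0.59, under the fold threshold. The ferritin chains Fth1 and Ftl1 were not altered (adjusted p = 0.142 and 0.847). Txn1 and G6pdx were named after their values were seen.

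Of 20 listed genes of detoxification and transport, 4 were higher and 1 lower. Cbr3, a carbonyl reductase, rose from 23.3 ± 3.27 to 38.7 ± 5.11 CPM (log2 fold change 0.73, adjusted p = 0.0018). Abcc3, an exporter of conjugates, rose from 4.43 ± 1.31 to 9.58 ± 1.88 CPM (1.11, adjusted p = 0.0052), and the aldehyde dehydrogenase Aldh3a1 from 49.3 ± 21.4 to 122.7 ± 26.2 CPM (1.31, adjusted p = 0.0079). In these 3 the groups did not overlap. Akr1b8, an aldo-keto reductase, rose by 0.91 in log2 units (adjusted p = 0.0104), and the transporter Abcc5 fell by 0.78 (adjusted p = 0.0032). Of 12 listed genes of superoxide and hydrogen peroxide handling, none was altered in the quasi-likelihood test. An unadjusted p under 0.05 was reached there by 4, as by 4282 of the 14533 genes of the table. With the likelihood ratio test 2 were altered, and 2 with DESeq2. In both these were Nox4 and Duox1, which make superoxide and hydrogen peroxide, named after their values were seen (log2 fold changes 1.45 and 0.89, quasi-likelihood adjusted p = 0.0711 and 0.0656). Cat, catalase, was at 202 ± 25.4 and 241 ± 19.8 CPM (adjusted p = 0.0985), and Sod1, Sod2 and Sod3 had adjusted p values of 0.0585 to 0.927.

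A short list held 3 epidermal genes linked to NRF2 activation in mouse keratinocytes. It was picked with earlier results of these data known, so that its count is not independent evidence, and all 3 were higher, against 5.19% of all genes. Sprr2d, a cornified envelope precursor, ranged from 0.336 through 0.615 to 4.47 CPM in WT mice and from 8.25 through 12.03 to 24.03 CPM in Pparg-/-epi mice (log2 fold change 3.24, adjusted p = 0.0048). Slpi, a protease inhibitor, ranged from 0.403 through 0.639 to 3.84 CPM and from 4.82 through 6.44 to 10.1 CPM (2.51, adjusted p = 0.0071). Epgn, an EGF receptor ligand, ranged from 5.79 through 9.59 to 17.7 CPM and from 19.5 through 33.6 to 228.8 CPM (2.58, adjusted p = 0.0158). Pparg-/-epi replicate 12 stood far above the next mouse (49.4 CPM) for Epgn. Leaving it out gave a log2 fold change of 1.54, a 2.91-fold difference in place of 5.98-fold. In each of them the lowest Pparg-/-epi mouse exceeded the highest WT mouse. These genes also answer to other signals in inflamed epidermis.

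Genes of 2 neighbouring responses were read beside them. None of 6 genes of the aryl hydrocarbon receptor pathway, which shares Nqo1 as a target, was altered in the quasi-likelihood test (2 at an unadjusted p under 0.05), the likelihood ratio test or DESeq2. Cyp1a1 was at 4.29 ± 4.89 CPM in WT mice and 0.825 ± 0.825 CPM in Pparg-/-epi mice (adjusted p = 0.130). Of 11 genes of the ATF4 pathway, which shares Slc7a11, 1 was altered: Cbs, cystathionine beta synthase, was lower (43.8 ± 3.90 and 26.5 ± 5.29 CPM, log2 fold change -0.73, adjusted p = 0.0027). Atf5 was altered with DESeq2 as well, but not with the likelihood ratio test. The median log2 fold change of the ATF4 list was 0.35, and 8 of its genes had an unadjusted p under 0.05, as had 4282 of the 14533 genes of the table. Asns and Psat1 rose by 0.47 and 0.44 in log2 units (adjusted p = 0.0302 and 0.0428), below the fold threshold, and were named, with Atf5, after their values were seen.

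**Figure D4:**
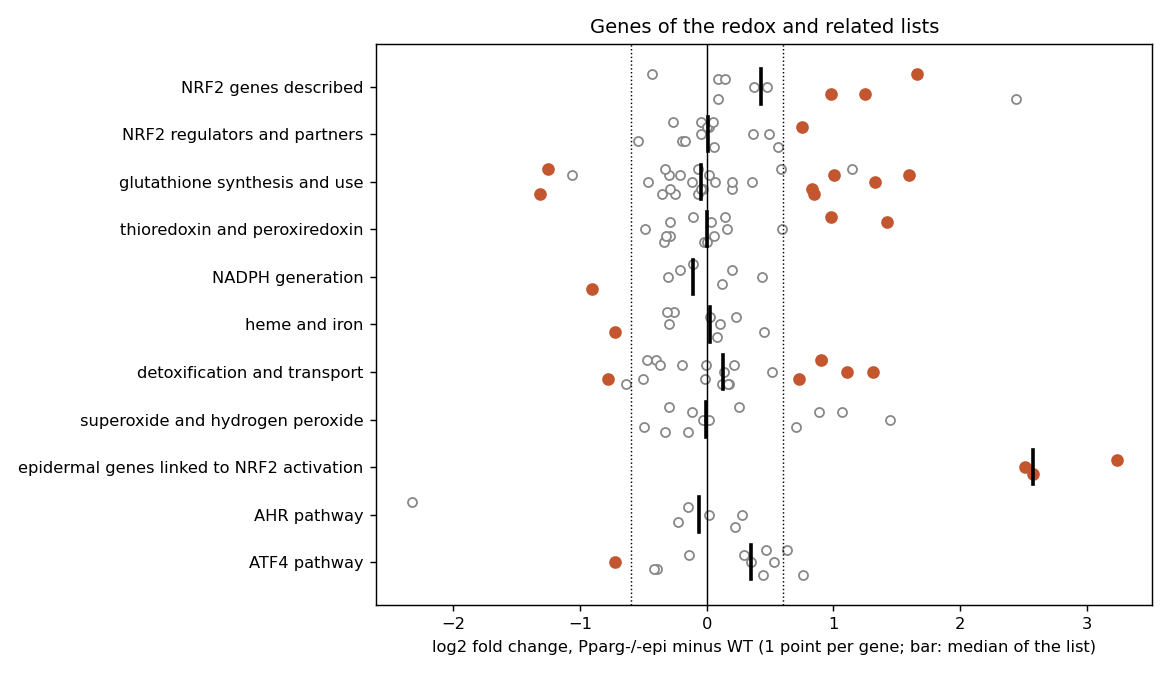
Log2 fold change, Pparg-/-epi minus WT, of every listed gene of the 10 NRF2 genes described, the 8 lists around NRF2 and the AHR and ATF4 lists (6 mice per group); filled points are altered, black bars are the median of each list and dotted lines mark 0.6 in either direction. The altered glutathione genes lie on both sides of 0, from -1.32 to 1.60.

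The genes most like each of the 10 in their variation within the groups (Pearson r of group-centred log2 CPM over the 12 mice, all genes ranked) were, for Srxn1, Ccdc97 (0.94) and Spire2 (0.94). For Nqo1 they were Gtf3c1 and Klhl29 (0.97 each), for Gpx2 Vdr (0.98) and Ppp1r3b (0.97), and for Slc7a11 4933412E12Rik (0.92) and Gjb2 (0.89). For Gclm they were Pla2g7 and Lrrc8c (0.97 each), for Gclc Car6 and Pinlyp (0.96 each) and for Txnrd1 Golgb1 and Mapkbp1 (0.90 each). For Nfe2l2 they were Ppp1r15b (0.94) and Aebp2 (0.91), for Keap1 Tmem79 (0.96) and Cptp (0.95), and for Hmox1 Nuak2 (0.98) and Krt23 (0.96). No gene was among the closest pair of more than 1 of the 10. Of these genes Spire2, Gjb2 and Vdr were altered, with log2 fold changes of 1.77, 1.62 and 1.01.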

How the data were processed

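The deposited counts are whole reads per gene in each of the 12 libraries, not normalized. The authors aligned the reads to mm10 with STAR 2.5.2b, left out multi-mapped reads, counted the rest with featureCounts (Subread 1.5.1) and kept genes above 0.5 CPM in at least 6 mice. The table also gives gene positions and the exon length of each gene. The 2800 blank rows were dropped, which left 14533 genes.

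Counts were scaled by TMM in edgeR 4.0.16 and tested with its quasi-likelihood test on genotype alone (the method of earlier versions, legacy setting), with Benjamini-Hochberg adjustment over all genes. CPM are on TMM-scaled libraries, RPKM are CPM divided by the deposited exon length, and log2 CPM for correlations used a prior count of 2. Each library is 1 mouse, so p-values measure the spread between mice. Mice that share a breeding number were treated as independent in this main test. The tests were also run on simulated counts, drawn independently for each mouse and with planted changes well above the fold threshold. That check does not cover mice that share a breeding number or changes near the threshold.

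The 10 members, the gene lists and the tests were chosen with earlier results of these data known. Named genes are the members, every altered gene of a list with up to 6, otherwise the 4 with the lowest adjusted p, and the 2 genes most like each member; other genes named were chosen after their values were seen. Shared 75-base stretches and exon overlaps were counted in GENCODE M21. Alternatives were the likelihood ratio test, DESeq2 1.42.0, other scalings and filters, covariates (sex, RIN, age), subsets of mice, breeding number as a block and leaving out each mouse.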

Additional observations from a re-analysis of the deposited data

Results flagged for a closer look

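WT replicate 2 lay far above the other 5 WT mice for 3 genes: Gclc (87.7 CPM against 40.0 to 48.5 CPM), Gclm (27.8 CPM against 11.4 to 15.7 CPM) and Gpx2 (11.0 CPM against 0.107 to 1.83 CPM). In each of these groups of 6 mice its gap to the nearest mouse, divided by the range of the group, exceeded the 95% critical value of Dixon's test. The test was run on 24 groups, and chance alone marks about 1 in 20. The RIN and the marker levels of this mouse are given with the results, and their part in its values was not tested.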

How the results depend on the processing

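WT and Pparg-/-epi mice share no replicate number, so no pairing by replicate was possible. Breeding number, of which 1 held both genotypes, was used as a block.

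The count of altered genes rose by more than 1.5 times without WT replicate 2 (2249). The counts fell by more than that in 4 subsets of the mice, which hold fewer animals, and with breeding number as a block. They were 651 of all genes, 10 of the pathway lists and 1 of the NRF2 genes in female mice alone, and 18, 0 and 0 in male mice alone. Without breeding numbers 192 and 195 they were 559, 10 and 1, without breeding number 226 they were 389, 5 and 0, and with the block 238, 4 and 0. Where these counts are 0 (edgeR quasi-likelihood test), an unadjusted p under 0.05 was reached in males by 28 pathway genes and 3 NRF2 genes. Without 226 it was reached by 3 NRF2 genes, and with the block by 4, as by 3496 of the 14533 genes. The share of all genes at that p was not counted in males or without 226, so those counts cannot be read against it. Leaving out 1 mouse gave 1116 to 2249 altered genes, 16 to 27 in the pathway lists and 2 to 4 among the NRF2 genes, against 1493, 20 and 3 with all mice.

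Srxn1 was not altered in males (log2 fold change 0.95) or without breeding number 226 (0.58, adjusted p = 0.0791). Slc7a11 was not tested with a minimum of 10 counts in every mouse, and neither was Gpx2. Nqo1 lost its call when libraries were scaled by total counts instead of TMM (log2 fold change 1.25, adjusted p = 0.0588) and with sex as a covariate (1.15, 0.0602), at about the fold of all mice (1.25), and in the subsets. Gpx2 was altered with sex (adjusted p = 0.0356) or RIN (0.0205) as a covariate, but not with age (0.103). With total counts (0.0809) or RLE size factors (0.0598) in place of TMM factors it was not altered either.

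Some log2 fold changes took the other sign. Keap1 was at -0.0395 and Gclm at -0.00907 (log2 fold change) in males, Txnrd1 at -0.0536 and Gclc at -0.0816 in females. Gclc was at -0.0262 with RIN as a covariate, -0.0744 without breeding numbers 192 and 195 and -0.210 without 226. Gclm was at -0.0941 and -0.0378 without these sets, and Hmox1 at 0.0317 without 226. With the block Nqo1 was at -0.0602, Hmox1 at 0.416, Gclc at -0.895, Gclm at -1.08 and Gpx2 at -1.19. The log2 ratio of Nfe2l2 to Keap1 ran from 0.28 to 0.48 when 1 mouse was left out. The causes were not tested. The newer quasi-likelihood method, the breeding number block, the fit without the 3 mice highest in hair follicle markers and the RIN fit without WT replicate 2 were chosen after seeing the data. Slc7a11 rested on 8 to 35 and Gpx2 on 1 to 207 counts per WT mouse, which limits their precision.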
